A study of Mus musculus with 6 samples.

Results

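Cells limit the peroxidation of their membrane lipids with a small set of enzymes and transporters, and 10 genes of this defence were described in CT26.WT, a line grown from a mouse colon carcinoma. The genes were taken by name from the deposited table: Slc7a11, Slc3a2, Gclc, Gclm, Gss, Gsr, Chac1, Gpx4, Aifm2 and Gch1. Each symbol stood on 1 of the 25407 rows, and all 10 rows passed the filter on low counts. The study compared 3 control libraries with 3 libraries from cells given Cu2O@AuMn@HA (a nanoscale particle whose name lists copper oxide, gold and manganese), NaHS (which releases hydrogen sulfide) and near-infrared light (NIR). No dose, time or control treatment is given in the sources used here, and the parts of the treatment were applied together, so their effects cannot be told apart. The series title names ferroptosis, the iron-dependent death that follows lipid peroxidation, as an outcome of interest.

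As background, the antiporter of SLC7A11 and its heavy chain SLC3A2 brings in cystine, which supplies cysteine for glutathione. Glutamate-cysteine ligase (catalytic subunit GCLC, modifier subunit GCLM) and then glutathione synthetase (GSS) build the tripeptide, glutathione reductase (GSR) regenerates it from its oxidised form with NADPH, and CHAC1 breaks it down. GPX4, a selenoprotein, spends glutathione to reduce lipid hydroperoxides, while AIFM2 (FSP1, which reduces coenzyme Q) and GCH1 (the entry enzyme of tetrahydrobiopterin synthesis) protect membranes without GPX4.

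In treated cells 6 of the 10 genes fell: Slc7a11, Slc3a2, Gclc, Gclm, Chac1 and Gpx4. None of the other 4 (Gss, Gsr, Aifm2 and Gch1) passed the threshold of 0.05 on the adjusted p of edgeR's quasi-likelihood test. Of all 16212 rows tested, 46.6% were called in either direction, 23.5% lower and 23.0% higher, so the 6 of 10 that fell stood above the share over the table, and the 0 of 10 that rose below it. At an unadjusted p under 0.05 the number that rose was also 0, as it was with DESeq2, whereas limma on log2(FPKM + 1) called 1, Gch1. The median log2 fold change of the 10 genes was -0.45, against 0.06 over all rows tested. In FPKM, which divides fragments by transcript length and by library size, the 3 treated libraries lay wholly below the 3 control libraries for 7 genes, against 27.1% of rows tested, and wholly above for 1, against 30.4%. The rows that were called over the whole table split evenly between directions (49.5% higher), but with upper quartile scaling 60.8% were higher, and that scaling moved the median over all rows from 0.06 to 0.18. With upper quartile scaling the 6 genes were still called lower, beside 18.7% of all rows, and Gch1 was called higher, beside 28.9%. With library totals alone the same counts stood beside 20.7% and 25.8%. With only the 10347 rows at a mean of at least 1 FPKM tested, 3207 rows fell and 3221 rose, larger shares than with the main filter. That filter removed Slc7a11, and of the other 9 genes 5 were called lower and 1, Gch1, higher.

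**Figure D1:**
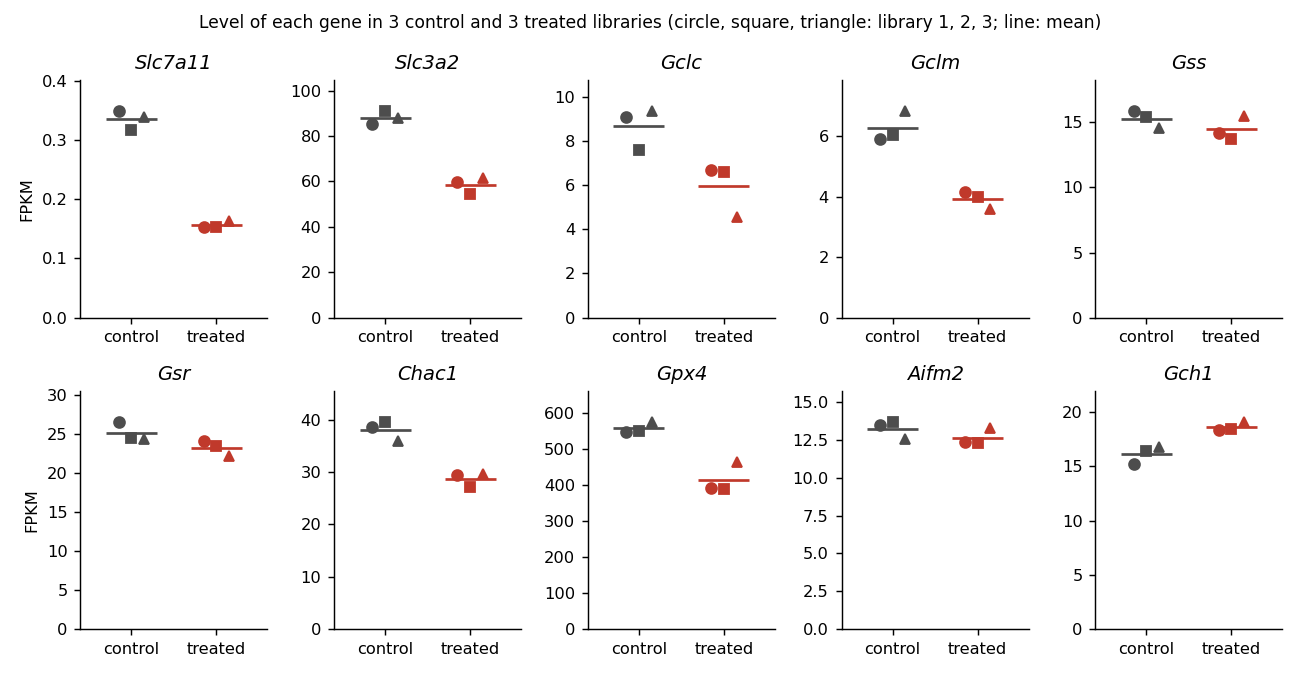
FPKM of each of the 10 genes (y axis, linear and starting at 0) in the 3 control libraries (grey) and the 3 treated libraries (red), with the group mean as a line. Slc7a11, Slc3a2, Gclc, Gclm, Chac1, Gpx4 and Gsr have every treated library below every control library, Gss and Aifm2 overlap, and Gch1 is higher in the treated libraries.

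Control libraries held 71409968 to 81821380 estimated counts and treated libraries 62328377 to 70323604, where a sequenced fragment weighed about 4. Treated libraries had more rows above 0 (20621 to 21059, against 18681 to 18970 in control) and a lower median FPKM over those rows (0.956 to 1.09, against 1.26 to 1.40). The labels do not say whether each library had its own culture, and p-values then cover only the spread between these libraries, which may be technical. Levels in bulk RNA cannot tell fewer cells from less RNA per cell. Of 7 epithelial markers, Krt18 (58.6 to 69.0 FPKM in control) was well expressed while Epcam and Cdh1 were listed at 0 in the 3 control libraries, and the mesenchymal gene Vim stood at 897 to 968. The summed epithelial markers were 68.8 to 78.8 FPKM in control and 164 to 185 in treated libraries, a sum carried by Krt18 (152 to 172 in treated), while Krt7 went from 2.92 to 3.22 down to 1.49 to 1.62 and 4 of the 7 were under 1 FPKM in every library. The 3 mesenchymal genes summed to 1025 to 1100 and 1501 to 1600 FPKM. Vim made up most of this sum (1260 to 1340 in treated libraries), and Fn1 went from 108 to 128 up to 232 to 256. The ranges of Cdh2 overlapped, at 4.52 to 5.29 in control and 3.67 to 4.83 in treated libraries. The 3 fibroblast markers summed to 0.698 to 0.914 and 1.47 to 1.79 FPKM, with Dcn at 0.175 to 0.221 and 0.836 to 1.04 and Lum at 0 in all but 1 treated library. Pdgfra stood at 0.521 to 0.693 in control and 0.634 to 0.796 in treated libraries, with overlapping ranges. Of 5 leukocyte markers found, summing to 2.72 to 3.07 and 2.50 to 3.82 FPKM, Lyz2 made up most (2.53 to 3.05 and 2.22 to 3.56), 4 were under 1 FPKM in every library, and Ptprc was listed at 0 in all but 1 treated library. The 3 endothelial markers summed to at most 0.0447 FPKM. The part of these differences between groups in the results below was not tested.

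For 3 of the genes that fell, the 250 bases before the transcription start hold letters of motifs known from stress responses, and these stretches are shown so that the motifs can be seen beside the genes' values. Promoters came from RefSeq (build GRCm38.p6), where 8 of the 10 genes matched, with 11 starts in all. Capitals mark matches on either strand to TGATGNAA (reverse complement TTNCATCA), the C/EBP-ATF composite element bound by ATF4, or to TGACNNNGC (reverse complement GCNNNGTCA), the core of the antioxidant response element bound by NRF2.
Slc7a11: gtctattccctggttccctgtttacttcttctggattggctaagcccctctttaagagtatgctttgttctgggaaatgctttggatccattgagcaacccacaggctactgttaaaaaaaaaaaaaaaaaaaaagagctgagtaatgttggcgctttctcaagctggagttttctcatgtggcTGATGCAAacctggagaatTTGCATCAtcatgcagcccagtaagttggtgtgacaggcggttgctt
Chac1: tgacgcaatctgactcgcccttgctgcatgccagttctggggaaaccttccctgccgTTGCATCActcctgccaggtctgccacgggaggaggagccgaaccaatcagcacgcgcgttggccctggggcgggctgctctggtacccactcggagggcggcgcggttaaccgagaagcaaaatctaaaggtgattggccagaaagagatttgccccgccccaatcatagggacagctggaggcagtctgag
Gclm: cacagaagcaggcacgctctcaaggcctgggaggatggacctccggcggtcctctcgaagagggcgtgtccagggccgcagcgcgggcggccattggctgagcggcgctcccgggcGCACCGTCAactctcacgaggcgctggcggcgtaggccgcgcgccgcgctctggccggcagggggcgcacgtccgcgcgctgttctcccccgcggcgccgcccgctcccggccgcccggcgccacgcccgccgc
The stretches are chr3:50443614-50443863 (minus strand), chr2:119350992-119351241 (plus) and chr3:122245307-122245556 (plus), written along the gene. Slc7a11 holds the ATF4 element in both orientations, with first bases at -66 and -47 from the start, Chac1 holds it at -193, and Gclm holds the antioxidant element at -134. The ATF4 element was present in 3.45% and the antioxidant element in 10.2% of the 32851 promoters of this length, and the motifs do not overlap in these windows. Counted by gene, 2 of the 8 matched genes held the ATF4 element, against 3.91% of all genes with a promoter. Only 1 of the 8 held the antioxidant element, near the 11.5% of all such genes. No match was found before the starts of Slc3a2, Gss, Aifm2, Gch1 and Gpx4, which says only that these letters are absent there. A match is a description of the letters, and binding was not measured.

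Both genes of the cystine antiporter fell. Slc7a11 (ENSMUSG00000027737, chromosome 3, 49846975 to 50398063, minus strand, in the table's own coordinates, whose build was not named and which differ from GRCm38), the light chain that carries cystine, had 0.350, 0.318 and 0.339 FPKM in the control libraries and 0.154, 0.154 and 0.164 in the treated libraries. The groups were far apart beside their spread, and the gene was the least abundant of the 10, at rank 12466 of all rows in control cells and 14826 in treated cells. Its log2 fold change was -1.12 ± 0.17 (SE, edgeR adjusted p = 0.000522), the largest fall of the 10 genes and the only one past 2-fold. Of all rows tested, 5.18% were both called and at least 2-fold lower in treated cells. These values rest on about 89.0 to 97.8 fragments a control library and 36.5 to 43.0 a treated library. The low level matters for the scale: with 1 added to FPKM before logs, the log2 difference was -0.21, and a filter at a mean of 1 FPKM removed the gene.

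Slc3a2 (ENSMUSG00000010095, chromosome 19, 8684246 to 8700733, minus strand), the heavy chain shared with other amino acid transporters, had 85.1, 91.1 and 87.8 FPKM in control and 59.7, 54.6 and 61.3 in treated libraries. No treated library reached the lowest control library, and the log2 fold change was -0.62 ± 0.09 (adjusted p = 0.000254), or -0.41 after a correction for the GC content of transcripts. Per length, Slc3a2 was 243, 286 and 259 times as abundant as Slc7a11 in the control libraries and 388, 355 and 374 times in the treated libraries. The ratio was therefore higher in every treated library than in every control library. No test was run on this ratio.

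Of 6 other tested genes of cystine and cysteine supply, 0 rose and 3 fell (23.0% and 23.5% over all rows tested). The counts were also 0 and 3 at an unadjusted p under 0.05 and with DESeq2. The median log2 fold change of these genes was -0.56. Slc1a5, an exchanger of glutamine and other neutral amino acids, fell from 85.4 ± 2.73 to 36.2 ± 2.07 FPKM (mean ± SD, n = 3; log2 fold change -1.27 ± 0.08). Slc1a4, which carries serine, alanine and cysteine, fell from 12.9 ± 0.570 to 7.17 ± 0.134 FPKM (-0.89 ± 0.09). Mpst, which moves sulfur from mercaptopyruvate, made from cysteine, fell by 0.28 ± 0.10, a call lost in 14 of 20 alternatives, including without control 2, control 3, treated 1 or treated 2 (adjusted p = 0.0757, 0.117, 0.0852 and 0.0830). Cth, the enzyme that makes cysteine from cystathionine, had means of 0.144 ± 0.0700 and 0.226 ± 0.0355 FPKM (adjusted p = 0.340).

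Both subunits of glutamate-cysteine ligase, the rate-limiting enzyme of glutathione synthesis, fell, while the next enzyme did not pass the test. Gclm (ENSMUSG00000028124, chromosome 3, 122039206 to 122064381, plus strand), the modifier subunit, had 5.91, 6.04 and 6.84 FPKM in control and 4.15, 4.0 and 3.60 in treated libraries. Groups did not overlap, and the log2 fold change was -0.71 ± 0.09 (adjusted p = 0.000191), or -1.11 after GC correction. On the opposite strand the gene model Gm17494 overlaps Gclm and had 9.17 and 5.96 FPKM on average in control and treated cells (log2 fold change -0.66, adjusted p = 0.0829). The libraries mark the strand, but the sources used here do not say whether counting used it. If it did not, reads from the stretch shared by both genes cannot be told apart in these counts.

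Gclc (ENSMUSG00000032350, chromosome 9, 77661817 to 77701767, plus strand), the catalytic subunit, had 9.10, 7.60 and 9.37 FPKM in control and 6.70, 6.60 and 4.56 in treated libraries. Treated 3 lay below the other treated libraries and the groups did not overlap. The log2 fold change was -0.58 ± 0.14 (adjusted p = 0.00616), and -0.44 without treated 3. The call was lost, at 0.0648, when limma tested every row above 0. The ratio of Gclc to Gclm was 1.54, 1.26 and 1.37 in the control libraries and 1.61, 1.65 and 1.27 in the treated libraries, so the ranges of the subunit ratio overlapped.

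Gss (ENSMUSG00000027610, chromosome 2, 155405101 to 155434730, minus strand), which adds glycine to complete glutathione, had 15.9, 15.4 and 14.6 FPKM in control and 14.2, 13.7 and 15.5 in treated libraries. Its groups overlapped, and the log2 fold change of -0.12 had a 95% interval from -0.30 to 0.07 (adjusted p = 0.271). It was called lower without treated 3 (-0.20, adjusted p = 0.0477) and had a sign above 0 with upper quartile scaling (0.0058). Acss2, on the opposite strand, overlaps Gss in part at a lower level, 3.81 FPKM in control cells. The ratio of Gss to Gclc was 1.74, 2.03 and 1.56 in control and 2.12, 2.07 and 3.39 in treated libraries, higher in each treated library by a margin that was small except in treated 3.

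Gsr (ENSMUSG00000031584, chromosome 8, 34142551 to 34188191, plus strand), which returns oxidised glutathione to its reduced form, had 26.5, 24.5 and 24.3 FPKM in control and 24.1, 23.4 and 22.2 in treated libraries. Every treated library was below every control library, by a narrow gap between 24.3 and 24.1. The log2 fold change of -0.15 (95% interval -0.30 to 0.01) did not pass (adjusted p = 0.109), and after GC correction it was 0.0018.

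Chac1 (ENSMUSG00000027313, chromosome 2, 119181710 to 119184862, plus strand), which cleaves glutathione and is known as a target of ATF4, had 38.6, 39.6 and 36.0 FPKM in control and 29.5, 27.1 and 29.7 in treated libraries. The groups were clearly separate. The log2 fold change was -0.44 ± 0.09 (adjusted p = 0.00212), smaller at -0.26 after GC correction. So the gene for a glutathione-degrading enzyme fell alongside genes for its synthesis, by a log2 difference close to that of Gpx4.

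Of 15 other tested genes of glutathione synthesis, breakdown and transport, 5 rose and 2 fell (7 and 2 at an unadjusted p under 0.05). Their median log2 fold change was 0.19, and over all rows tested 23.0% rose and 23.5% fell. Ggt1, which cleaves glutathione outside the cell, rose from 7.45 ± 0.334 to 11.9 ± 0.801 FPKM (log2 fold change 0.64 ± 0.10). Ggct, which acts on the gamma-glutamyl products of glutathione breakdown, rose by 1.05 ± 0.19 from a low 0.417 ± 0.0892 FPKM. Glrx, a glutaredoxin, rose by 0.38 ± 0.09, and Slc25a39, which carries glutathione into mitochondria, fell by 0.33 ± 0.09, a call lost without treated 1 (adjusted p = 0.0556) and with upper quartile scaling (0.0770), and its log2 fold change was -0.18 after GC correction. Lap3, a leucine aminopeptidase, stood at 62.3 ± 2.19 and 65.3 ± 0.539 FPKM (adjusted p = 0.730).

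Gpx4 (ENSMUSG00000075706, chromosome 10, 79883000 to 79892273, plus strand) was by far the most abundant of the 10 genes per length, at rank 106 of all rows in control cells and 160 in treated cells. It had 548, 551 and 576 FPKM in control and 393, 389 and 464 in treated libraries. All treated libraries lay below the controls, with treated 3 the closest to them. The log2 fold change was -0.46 ± 0.10 (adjusted p = 0.00319), or -0.57 without treated 3. Treated cells thus kept 74.4% of the control mean, 415 ± 41.8 against 558 ± 15.2 FPKM. The row Gpx4-ps2, named as a pseudogene of Gpx4, stood at 18.8 FPKM in control cells, and how the counting split shared reads is not known.

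**Figure D2:**
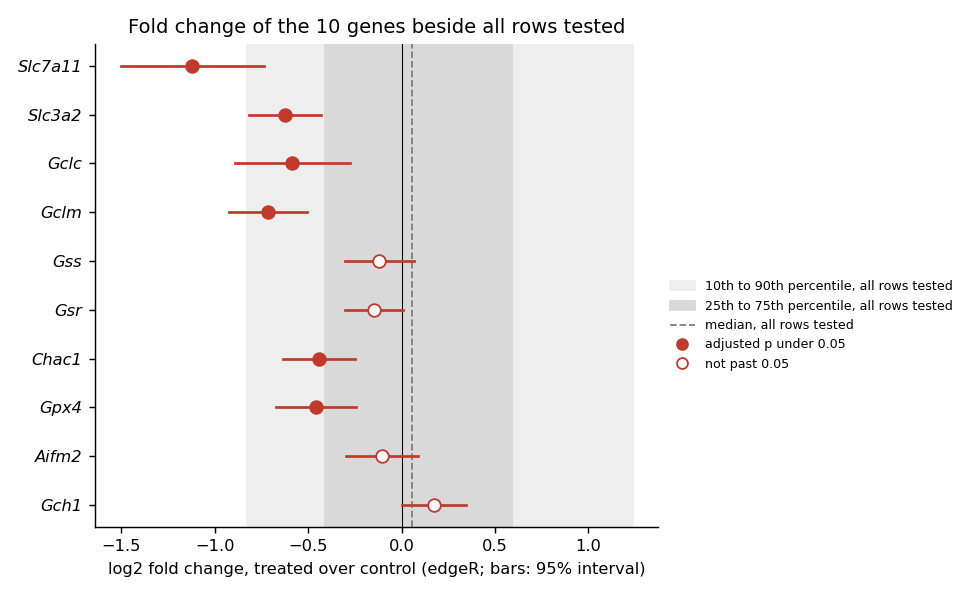
Log2 fold change of treated over control for the 10 genes (points) with 95% intervals (bars), beside the spread of all 16212 rows tested (grey bands and dashed median). The 6 filled points are the genes that fell, from -0.44 for Chac1 to -1.12 for Slc7a11, and the intervals of Gss, Gsr, Aifm2 and Gch1 reach across 0.

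Among the peroxidases measured, Gpx4 made up 76.7%, 84.9% and 85.7% of the summed FPKM of Gpx1, Gpx2, Gpx3, Gpx4, Gpx7 and Gpx8 in the control libraries and 72.3%, 69.4% and 75.8% in the treated libraries. Its share was lower in every treated library, by a narrow margin against control 1. Of 8 other tested genes for peroxidases and related enzymes, 3 rose and 2 fell (23.0% and 23.5% over all rows tested). Their median was 0.30. With DESeq2, or at an unadjusted p under 0.05, 4 rose and 2 fell. Gpx8, a peroxidase of the endoplasmic reticulum, rose from 22.4 ± 10.5 to 101 ± 16.9 FPKM (log2 fold change 2.14 ± 0.27). Without control 1 that value was 2.52, and without control 2 it was 1.87. Mgst2, a microsomal glutathione transferase, rose by 0.49 ± 0.10. Gpx1, the cytosolic glutathione peroxidase, fell from 97.7 ± 30.6 to 55.3 ± 3.53 FPKM (-0.85 ± 0.17). Its log2 fold change was -0.605 without control 1 and -1.03 without control 3. Prdx6, a peroxiredoxin that reduces phospholipid hydroperoxides, fell by 0.49 ± 0.08, and Mgst3 stood at 54.1 ± 3.11 and 59.9 ± 4.50 FPKM (adjusted p = 0.369, or 0.00715 after GC correction).

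GPX4 carries a selenocysteine, which cells insert with dedicated factors. Of 10 tested genes for that insertion and for selenium supply, 2 rose and 5 fell (2 and 6 at an unadjusted p under 0.05). Their median log2 fold change was -0.51, and over all rows tested 23.0% rose and 23.5% fell. Lrp8, a receptor that takes up selenoprotein P, fell from 1.21 ± 0.0956 to 0.724 ± 0.0409 FPKM (log2 fold change -0.78 ± 0.12). The binding protein gene Secisbp2 fell by 0.67 ± 0.16, Sephs1, a relative of the selenophosphate synthetase, by 0.54 ± 0.10, and the elongation factor gene Eefsec by 0.52 ± 0.12. Sephs2, the selenophosphate synthetase itself, stood at 28.6 ± 0.848 and 25.3 ± 1.13 FPKM (adjusted p = 0.0553). Sephs2 was called lower in 4 of 20 alternatives, among them without treated 3 (adjusted p = 0.0302), and its log2 fold change went from -0.21 to -0.01 after GC correction. That correction also took Eefsec to -0.34.

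Aifm2 and Gch1, whose products protect membranes without GPX4, did not pass the test. Aifm2 (ENSMUSG00000020085, chromosome 10, 61551042 to 61574432, plus strand) had 13.5, 13.7 and 12.6 FPKM in control and 12.4, 12.3 and 13.3 in treated libraries. The ranges overlapped, and the log2 fold change of -0.10 (95% interval -0.30 to 0.09, adjusted p = 0.354) turned to 0.11 after GC correction and to 0.02 with upper quartile scaling. Of 17 other tested genes of the coenzyme Q route, 3 rose and 7 fell (3 and 8 at an unadjusted p under 0.05). Their median log2 fold change was -0.26, and over all rows tested 23.0% rose and 23.5% fell. Nqo1, a quinone reductase and classical NRF2 target, fell from 9.12 ± 2.47 to 2.63 ± 0.287 FPKM (-1.82 ± 0.20), Dhodh, which passes electrons to coenzyme Q in mitochondria, from 3.46 ± 0.0761 to 1.58 ± 0.0767 FPKM (-1.16 ± 0.11), and Coq7, a coenzyme Q hydroxylase, from 2.82 ± 0.279 to 1.48 ± 0.127 FPKM (-0.96 ± 0.13). Nmt1, an enzyme that attaches the myristoyl group AIFM2 needs at membranes, fell by 0.46 ± 0.07, or by 0.26 after GC correction. Coq6 stood at 7.74 ± 0.781 and 7.68 ± 0.357 FPKM (adjusted p = 0.776).

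Gch1 (ENSMUSG00000037580, chromosome 14, 47391352 to 47426870, minus strand) had 15.2, 16.4 and 16.8 FPKM in control and 18.4, 18.5 and 19.1 in treated libraries. It was the only gene of the 10 whose treated libraries all lay above the controls, by a log2 fold change of 0.17 with a 95% interval from -0.00018 to 0.34, and it did not pass (adjusted p = 0.0939). It passed in 7 of 20 alternatives, at 0.20 to 0.30, among them library totals only and upper quartile scaling. Of 6 other tested genes of the tetrahydrobiopterin route, 1 rose and 0 fell (23.0% and 23.5% over all rows tested). Their median was 0.19. The counts were also 1 and 0 at an unadjusted p under 0.05 and with DESeq2, and 2 and 0 with limma. Qdpr, which regenerates the cofactor, rose from 62.03 ± 3.64 to 75.3 ± 2.14 FPKM (0.24 ± 0.08, or 0.45 after GC correction), a call lost without control 1, control 3 or treated 1 (adjusted p = 0.135, 0.0995 and 0.111). Gchfr, the feedback regulator of GCH1, had means of 48.9 ± 0.933 and 57.2 ± 2.69 FPKM (adjusted p = 0.106), passing in 9 of 20 alternatives.

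Ordered by FPKM, the control libraries ran Gpx4, Slc3a2, Chac1, Gsr, Gch1, Gss, Aifm2, Gclc, Gclm and Slc7a11, and the treated libraries kept this order. In control cells the neighbours Gch1 (16.1 FPKM) and Gss (15.3) were the only ones whose library ranges overlapped. In treated cells they stood at 18.7 and 14.4 FPKM with separate ranges. The span was wide, with Gpx4 at 1662 times the FPKM of Slc7a11 in control cells.

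Among 11 tested regulators of these genes, 3 rose and 6 fell (23.0% and 23.5% over all rows tested). Their median was -0.29, and with limma 3 rose and 5 fell of 10 tested. Trib3, a pseudokinase raised by ATF4, fell from 80.0 ± 3.61 to 30.5 ± 2.34 FPKM (log2 fold change -1.42 ± 0.09), and Ddit3, which encodes CHOP, rose from 27.9 ± 0.572 to 69.5 ± 1.93 FPKM (1.28 ± 0.07). Trp53 fell from 73.0 ± 4.66 to 44.5 ± 4.21 FPKM (-0.75 ± 0.10), and Mdm2, which marks p53 for degradation, rose from 8.57 ± 0.900 to 18.6 ± 2.43 FPKM (1.08 ± 0.10). Otub1, a deubiquitinase reported to stabilise SLC7A11, stood at 56.5 ± 1.14 and 52.5 ± 4.39 FPKM (adjusted p = 0.217). The genes of the factors whose motifs are shown above were chosen after their values were seen: Atf4 fell from 199 ± 9.78 to 147 ± 1.87 FPKM (-0.48 ± 0.08, or -0.27 after GC correction), and Nfe2l2, which encodes NRF2, fell by 0.29 ± 0.10, a call lost in 12 of 20 alternatives, including without control 1, control 2, treated 1 or treated 3 (adjusted p = 0.0808, 0.0705, 0.0559 and 0.0748). Chosen likewise, Keap1, which marks NRF2 for degradation, fell by 0.62 ± 0.10, and Bach1, a repressor at antioxidant elements, rose by 1.14 ± 0.26 from 0.655 ± 0.275 FPKM. The remaining regulators were Bap1, which fell (log2 fold change -0.55 ± 0.08), and Atf3, which did not pass (edgeR adjusted p = 0.0997).

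Glutathione reductase draws on NADPH. Of 11 tested genes that supply it, 1 rose and 6 fell (23.0% and 23.5% over all rows tested), with a median of -0.49. The counts were 1 and 8 at an unadjusted p under 0.05, and 1 and 7 with DESeq2 and with limma. Mthfd1 and Mthfd2, enzymes of the folate cycle, fell from 35.4 ± 1.61 to 11.9 ± 0.484 FPKM (-1.61 ± 0.08) and from 39.4 ± 0.309 to 13.7 ± 0.484 FPKM (-1.56 ± 0.07). G6pdx and Pgd, the NADPH-yielding enzymes of the pentose phosphate pathway, fell by 1.08 ± 0.07 and 0.78 ± 0.09. Idh2 stood at 105 ± 6.43 and 94.3 ± 2.51 FPKM (adjusted p = 0.0878) and was called lower without control 1 (adjusted p = 0.0360). Over the 8 related lists together, 18 of 84 tested genes rose and 31 fell, beside 23.0% and 23.5% of all rows tested.

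**Figure D3:**
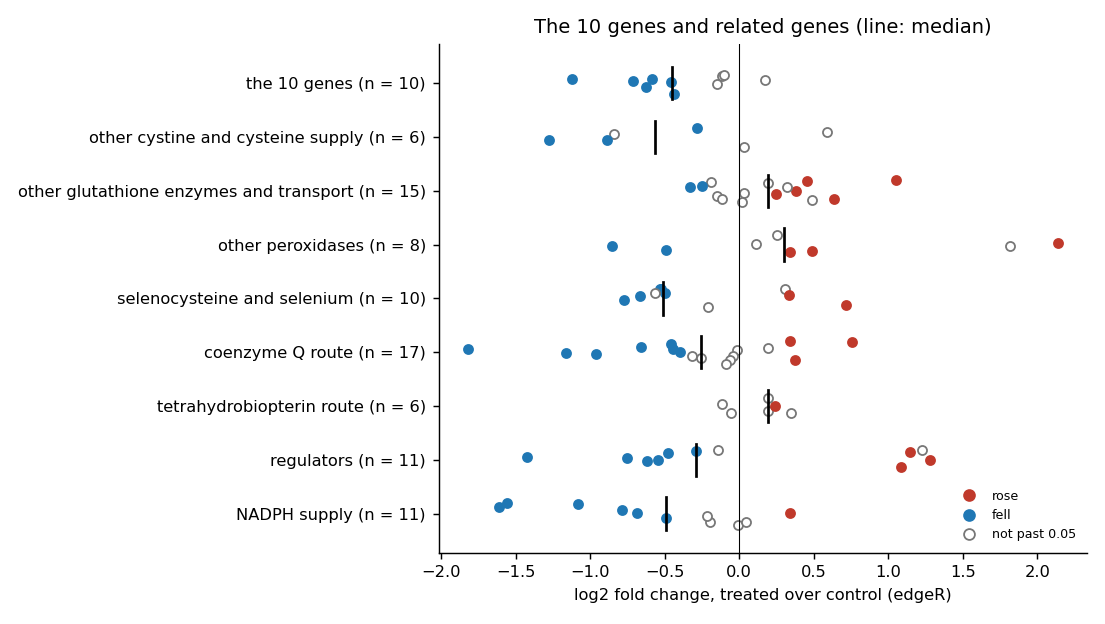
Log2 fold change of treated over control for the 10 genes and for 8 lists of related genes, with 1 point a gene (red rose, blue fell, open not past the threshold) and the list's median as a black line. The 10 genes have 6 points called lower and none called higher, and the medians run from -0.56 for other cystine and cysteine supply to 0.30 for other peroxidases.

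**Figure D4:**
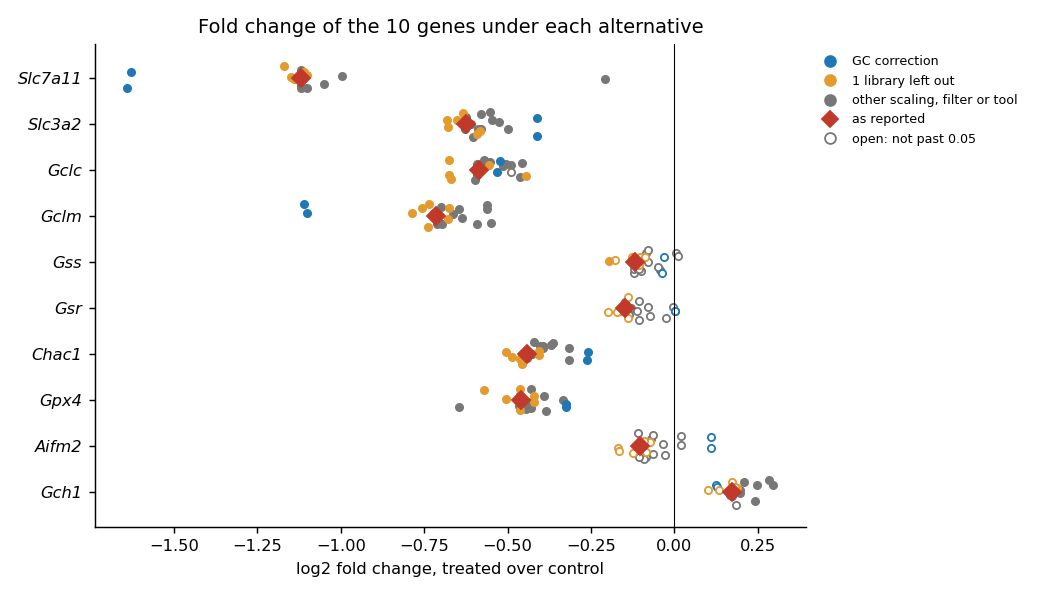
Log2 fold change of the 10 genes as reported (red diamonds) and under each alternative (points, filled where the adjusted p was under 0.05). The 6 genes that fell stay below 0 in every alternative that tested them, while Slc7a11 and Gclm lie farther from 0 and Slc3a2, Chac1 and Gpx4 closer to 0 with the GC correction.

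The transcripts of the 10 genes differ in GC content, from 40.7% for Slc7a11 and 42.1% for Gclm to 57.4% for Chac1 and 60.2% for Gpx4. Across 15760 genes, which share libraries and depth and so are no independent replicates, fold changes fell with GC content (Spearman -0.27). With a correction for that trend the 6 genes were still called lower (23.5% of rows fell and 25.7% rose), with Slc7a11 at -1.63, Gclm at -1.11, Gclc at -0.52, Slc3a2 at -0.41, Gpx4 at -0.32 and Chac1 at -0.26.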

How the data were processed

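RNA of 6 CT26.WT libraries (3 control, 3 treated) was measured by paired-end sequencing of oligo-dT-selected RNA, with the second strand marked by dUTP, per the labels' protocols. Per the file headers, the authors deposited FPKM and a count per gene and library. The deposited counts are estimated counts, whole numbers as deposited: values of 4 occurred 4054 times against 2539.5 for their neighbours, so 1 fragment weighs about 4. Tools named by the submitters' processing notes were HISAT2 2.2.1, StringTie 2.1.6 and cutadapt 1.9, besides edgeR and DESeq2. For build, annotation and strand setting, nothing is given in the sources used here. All coordinates but those of promoters are the file's, and none of the 10 genes has its GRCm38 (GENCODE M21) start and end.

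The test was edgeR's quasi-likelihood test (4.0.16, R 4.3.3) on the counts after its low-count filter and TMM scaling, 2-sided, adjusted by Benjamini-Hochberg over 16212 rows, with fold changes as treated over control and SE as the fold change over the root of F. Steps were tested on simulated data. Alternatives used DESeq2 1.42.0, limma 3.58.1, other scalings, filters and pseudocounts (1 and 0.1), counts divided by 4, a replicate block, each library left out, and a GC correction (loess, span 0.4, centred to keep the scaling; GC for 97.2% of rows). The genes, lists and tests were chosen with earlier results of these data known. From each list the text names up to 4 called genes with the smallest p and the most abundant gene not called. For the regulators it also names the rest of the list, chosen after the values were seen.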

Additional observations from a re-analysis of the deposited data

How the results depend on the processing

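Of the 10 genes, the 6 that fell did so in every alternative that tested them, except Gclc in limma over every row above 0 (-0.49, adjusted p = 0.0648). Slc7a11 was removed by the filter at a mean of 1 FPKM, so 5 genes were called lower there. With that filter edgeR called 3207 of 10347 rows lower and 3221 higher. With 1 library left out, 6 to 7 genes were called lower and 0 higher. Those fits called 3241 to 3720 rows lower and 2832 to 3572 higher, of 16690 to 16891 tested. The number called higher was 1 (Gch1) in place of 0 with library totals only, with upper quartile factors, with the filter at a mean of 1 FPKM and in all 4 limma fits. In the limma fits with that filter, 2978 to 3065 of 10347 rows rose and 3418 to 3427 fell. Limma over every row above 0 called 3642 of 25407 rows higher and 3339 lower. Gss turned to 0.0058 with upper quartile factors and 0.012 with quantile normalization, Gsr to 0.0018 with GC correction and 0.0026 with the replicate block added, and Aifm2 to 0.0205 (upper quartile), 0.019 (quantile) and 0.11 (GC correction, with or without the block); none of these passed. Among related genes, Coq6 turned to 0.032 (totals), 0.081 (upper quartile), 0.025 (the FPKM filter), 0.032 (quantile), 0.16 (GC correction), 0.17 (with block) and, with 1 library left out, ran from -0.144 to 0.00613, Otub1 to 0.051 (GC correction, with or without block) and Idh2 to 0.012 (both), also with no call. The cause of these changes was not tested. Same-numbered libraries did not deviate together (Pearson r 0.040, -0.10 and 0.0065 for numbers 1, 2 and 3), and not every library correlated best with its own number. With so few libraries a group, these correlations cannot show whether same-numbered libraries shared a culture or day, and the labels do not say. With the replicate block 3070 rows rose and 3205 fell (3735 and 3813 without it), and the same count of 6 genes fell. The call of Qdpr was lost with the block (0.24, adjusted p = 0.0835). Depth limits Slc7a11 most. Counting error only is covered by its number of fragments.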

Other observations

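The authors' table also carries KEGG terms, which were looked at after the values of the 10 genes were known. Its ferroptosis term holds 38 genes, among them Slc7a11, Slc3a2, Gclc, Gclm, Gss and Gpx4. Of the 27 others that were tested, 10 rose and 9 fell, with a median log2 fold change of 0.11. Its glutathione metabolism term holds 61 genes, among them Gpx4, Gclc, Gclm, Gss, Gsr and Chac1. Of the 42 others tested, 18 rose and 11 fell, with a median of 0.28. Over all rows tested, 23.0% rose and 23.5% fell, with a median of 0.06. Both medians lie above that value, whereas the median of the 10 genes was -0.45, and no test of that difference was run.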
